A study of Mus musculus with 24 samples.

Results

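The ATP-binding cassette (ABC) transporter genes of mouse brite adipocytes were examined after knockdown of the long noncoding RNA Ctcflos. Members were the genes of subfamilies A to G whose symbol runs from Abca to Abcg followed by a number and that had a RefSeq mRNA row in the expression table, and where a gene had several such rows the row with the highest mean over the 24 libraries was taken. This gave 49 genes of the 20461 genes with a RefSeq mRNA row, from 60 rows. The rule used symbols, the type of row and mean levels, and no difference between groups. It was set, however, with earlier results of these data known.

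Preadipocytes came from the stromal vascular fraction of inguinal white fat of mice of the 129SvEv strain. They were induced and then differentiated with rosiglitazone, which makes white fat cells take on the heat-producing features of brown fat. The cells were reverse transfected with an antisense oligonucleotide of the gapmer type at 50 nM, whose locked nucleic acid ends flank a DNA core that leads to cleavage of the target RNA. The gapmer was directed either at Ctcflos (KD) or at no target (NC), and RNA was taken 24 h or 72 h later. In the paper's design for these times, transfection took place on the first day after induction. Treatment and time gave 4 groups of 6 libraries, KD and NC at each time, and all of them shared the strain, the rosiglitazone and a transfected gapmer. The labels do not tie libraries to separate mice or cultures, so p-values measure the spread between these libraries, which may in part be technical.

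ABC proteins bind and hydrolyse ATP, and most of them move lipids, sterols, peptides, haem, drugs or conjugated metabolites across membranes. Subfamily A carries lipids, and subfamily B holds drug efflux pumps together with mitochondrial transporters. Subfamily C holds exporters of organic anions and the sulphonylurea receptors. Subfamily D brings fatty acyl-CoA into peroxisomes, subfamilies E and F act on the ribosome and span no membrane, and subfamily G exports sterols, haem, urate and xenobiotics. In fat cells the sterol exporters Abca1 and Abcg1 and the peroxisomal Abcd2 are well known members.

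The libraries held 1391832 to 5926375 mapped reads (median 4009998), recovered from the steps of the deposited RPKM (reads scaled by transcript length and by the mapped reads of the library). The lowest of these was KD 24 h replicate 6. The highest was NC 72 h replicate 6, whose reads may be fewer by a factor of 2, and the next highest was NC 24 h replicate 2 (5423840). Read numbers summed over NC 72 h may therefore be too high. NC 72 h replicates 2 and 3 differed by less than the sampling noise (0.369 of it). They were therefore counted as 1 sample, which leaves n = 5 in NC 72 h. Over 7143 genes other than the ABC genes, a tree of these same libraries was cut into 2 clusters, a number fixed beforehand. They held 16 and 8 libraries. The smaller cluster held, at 24 h, KD replicates 3 and 4 and NC replicates 5 and 6. At 72 h it held KD replicates 5 and 6 and NC replicates 4 and 5. With group means removed, libraries of different groups had a mean correlation of 0.11 within a cluster and -0.13 across clusters. The labels name no batch, and both clusters held libraries of all 4 groups, so values within each cluster are given beside several results below. Few reads fell on Ctcflos itself. Its RefSeq entry held 12 reads over the KD 24 h libraries and 60 over NC 24 h, and 17 and 101 at 72 h. It had a median of 0.09 RPKM in KD 24 h against 0.73 in NC 24 h, and of 0.21 in KD 72 h against 1.00 in NC 72 h. It ranged up to 0.62 RPKM in KD 24 h and down to 0.18 in NC 24 h, and at 72 h the highest KD library (0.52) lay below the lowest NC library (0.85). An Ensembl transcript of the same gene is the one the paper numbers as transcript 1. The paper centred its transcriptome work on this transcript, and it also profiled a gapmer against other Ctcflos transcripts. Transcript 1 held 8 reads in KD 24 h (0.00 to 0.96 RPKM) and 12 in NC 24 h (0.16 to 0.79). At 72 h it held 3 in KD (0.00 to 0.49) and 41 in NC (0.00 to 2.32), and its groups overlapped at both times. The paper judged the knockdown by quantitative PCR and reported an efficient reduction of Ctcflos, which these few reads do not measure well. The summed level of 6 adipocyte markers was 50450 to 52920 scaled RPKM in NC 24 h and 37160 to 49910 in KD 24 h, and 36570 to 48260 in NC 72 h and 26220 to 35770 in KD 72 h, so these groups did not overlap. In NC 24 h the means were 2639 for Adipoq, 2116 for Cidec, 111.6 for Pparg and 21.02 for Plin1. Most of the sum therefore came from the other markers, Fabp4 and Lpl. Neither of these was called at 24 h, and the highest KD 24 h sum (49910) lay just below the lowest NC 24 h sum (50450). Single markers are given with the peroxisomal genes. The sums of 6 preadipocyte or fibroblast markers and of 4 mural markers overlapped between KD and NC at both times. Ly6a (mean 690.7 in NC 24 h) made up most of the former sum and Acta2 (606.9) most of the latter. At 72 h, 1 of 3 tested preadipocyte markers was called higher, Cd34 (2.02 ± 0.37), and 1 of 4 mural markers, Pdgfrb (0.59 ± 0.14), and 0 were lower. Of all genes, 11.0% were called higher and 12.5% lower at 72 h. At 24 h 0 of 4 were called in either list, where 11.6% of all genes were called higher and 12.5% lower. The sum of 5 endothelial markers did not exceed 1.59 scaled RPKM in any sample, and that of 4 epithelial markers did not exceed 1.03. In bulk RNA, fewer cells of a type and less RNA per cell cannot be told apart.

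Levels below are RPKM divided by a scaling factor per library, called scaled RPKM. A change is the log2 fold change of scaled RPKM + 0.1 with its standard error. It was tested with limma and Benjamini-Hochberg adjustment over all entries of the table that passed a filter on low values, with a threshold of 0.05 on the adjusted p. Of the 49 ABC genes, 9 were listed at 0 in all libraries (Abca12, Abca13, Abca15, Abcb5, Abcc6, Abcc8, Abcg4, Abcg5 and Abcg8). A further 18 were above 0 in some library but did not pass the filter in either KD comparison. The remaining 22 entered at least 1 KD comparison, 21 at each time. Because the reads come from the 3′ ends of transcripts, levels per length favour short entries, and the order of levels between genes depends on the entry lengths.

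In NC 24 h the highest levels were those of Abcc5 (165.8 ± 28.6 scaled RPKM, SD, n = 6), an exporter of cyclic nucleotides and other organic anions, and Abcb10 (69.0 ± 4.4), a transporter of the inner mitochondrial membrane. The Abcc5 entry is only 1176 bases long, whereas its full-length entry of 5811 bases had 3.57 ± 0.59. The place of Abcc5 at the top therefore holds for the short entry and not for the full-length transcript. Below these came Abcd2 (45.4 ± 10.9), Abcg1 (42.2 ± 6.4), Abcd3 (30.8 ± 2.0) and Abce1 (25.1 ± 3.5). Abcb8 (13.7 ± 1.3) and Abcg2 (8.08 ± 2.32) followed. The ranges of samples overlapped between neighbours in this order from Abcd2 to Abce1 and between Abcb8 and Abcg2. Within each of the 6 NC 24 h libraries Abcg1 was nevertheless above Abcd3 and Abcb8 above Abcg2, whereas the order of Abcd2 and Abcg1 and that of Abcd3 and Abce1 changed between libraries, so these last 2 pairs did not differ beyond their spread. The other tested members had means from 0.420 to 5.69.

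**Figure D1:**
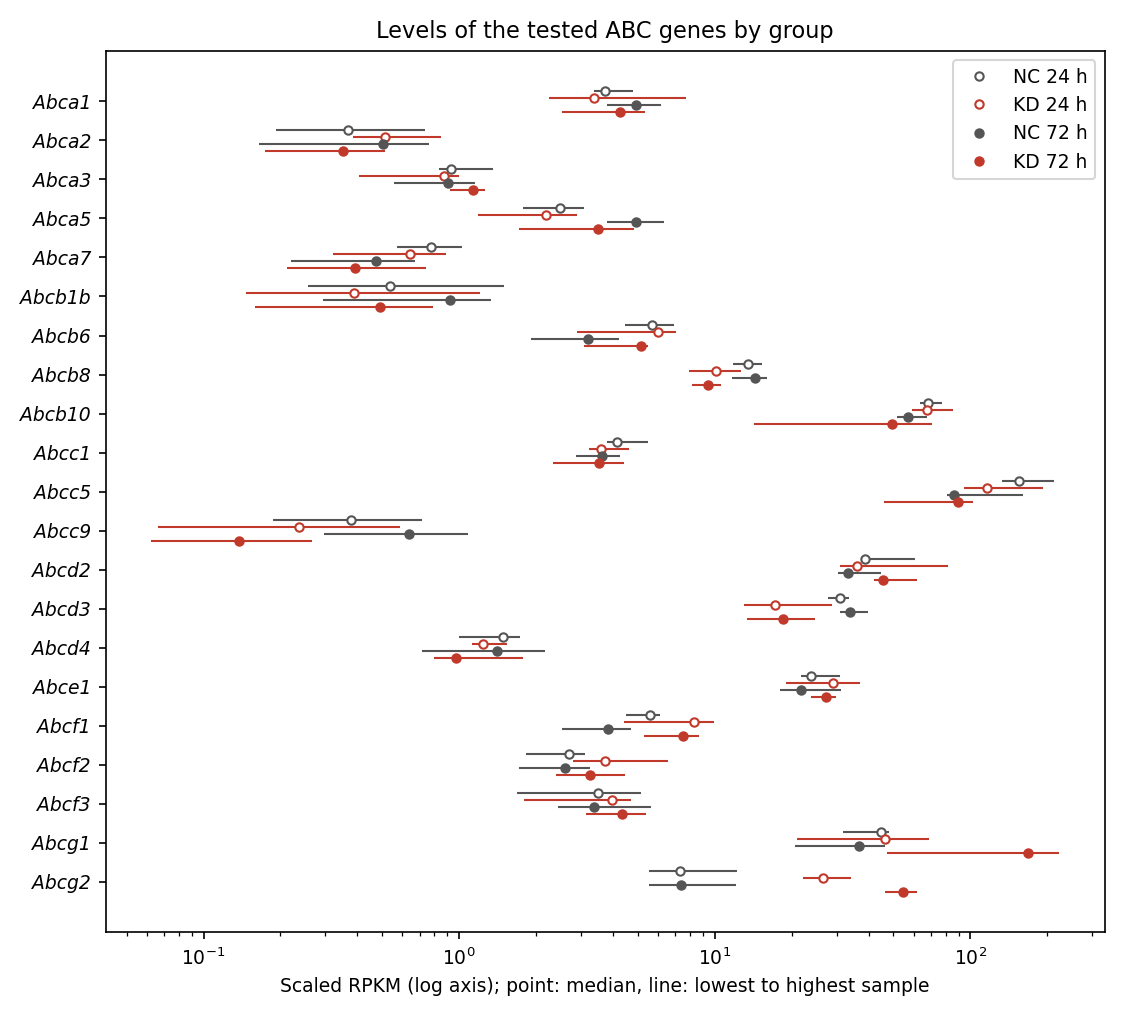
Levels of ABC genes that entered a KD comparison, on a log axis of scaled RPKM. Points are group medians and lines run from the lowest to the highest sample (grey NC, red KD, open 24 h, filled 72 h). Abcg2 in KD lies above all NC samples at both times, and the line of Abcg1 in KD 72 h is long, from 47.1 to 222.8.

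At 24 h, 3 of the 21 tested members passed the threshold (14.3%), against 24.2% of all 9379 genes represented by 1 RefSeq mRNA row in the same fit and 22.8% of all entries. Abcg2 was higher in KD, and Abcd3 and Abcb8 were lower. Over those genes 11.6% were called higher and 12.5% lower. At 72 h, 6 of 21 members passed (28.6%), against 23.5% of 9836 genes and 22.3% of all entries. Abcg2, Abcg1, Abcf1 and Abcd2 were higher, and Abcd3 and Abcb8 were lower, where 11.0% of the genes were called higher and 12.5% lower. The share of members called was thus near that of all genes at both times. The median log2 fold change of the tested members was -0.08 at 24 h and -0.15 at 72 h, against 0.00 and 0.02 for all such genes. Without scaling factors the median of all entries at 72 h moved to 0.25, 81.0% of the calls over all entries were then higher against 46.2% with scaling, and the members called were 6 higher and 1 lower.

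By subfamily, 5 of 15 A members, 5 of 10 B members, 3 of 10 C members, 3 of 4 D members, the only E member, all 3 F members and 2 of 6 G members entered a KD comparison. In A and C no member passed at either time. In B, 1 of 5 tested members was called lower at 72 h, with a median log2 fold change of -0.54. In F, all 3 fold changes at 72 h lay between 0.23 and 0.95 and 1 of them passed. In G, both tested members passed at 72 h.

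**Figure D2:**
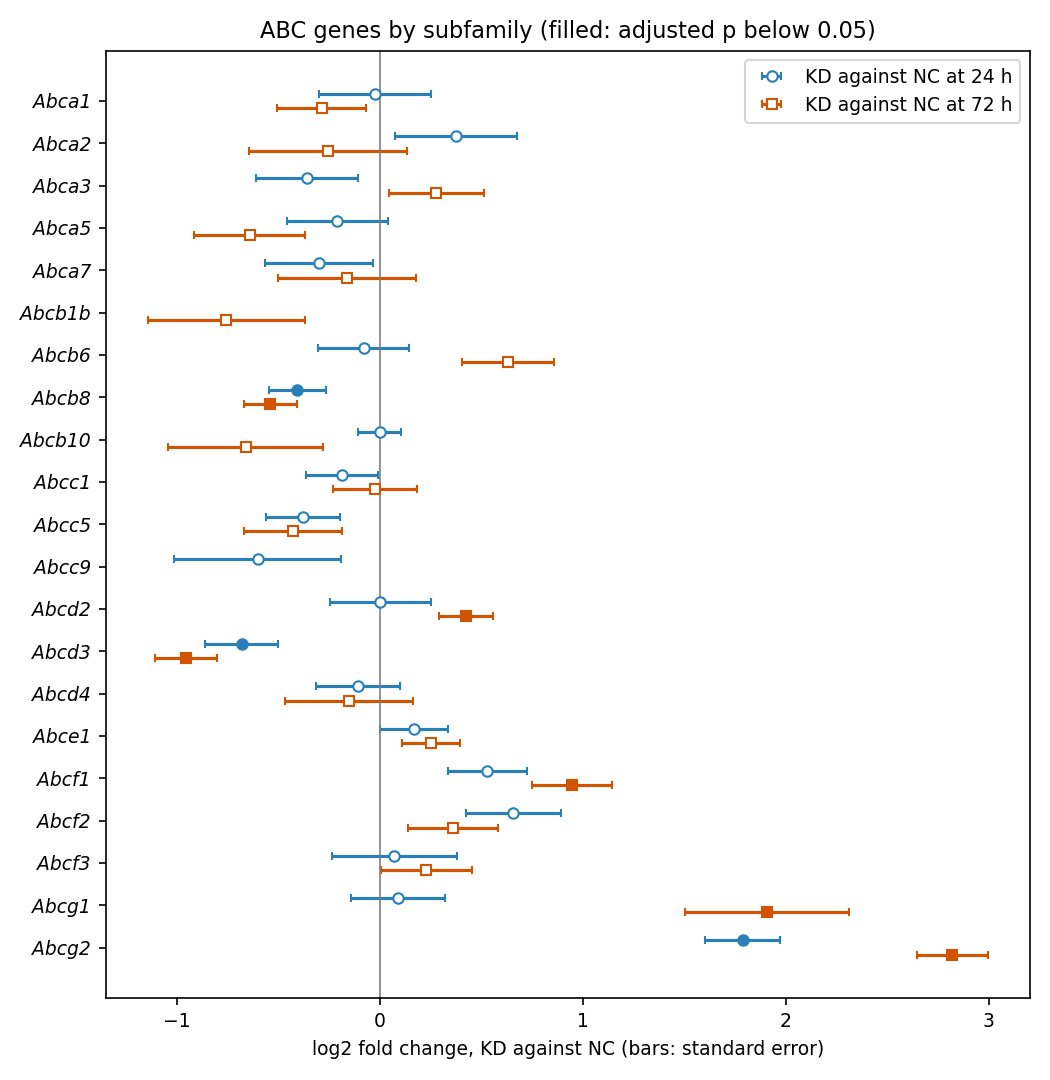
Log2 fold changes of KD against NC for the tested ABC genes, with bars of 1 standard error, at 24 h (blue circles) and 72 h (orange squares). Filled symbols have an adjusted p below the threshold, 3 at 24 h and 6 at 72 h, and the points of Abcg2 (1.79 and 2.82) lie farthest to the right.

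Abcg2, the efflux pump known as breast cancer resistance protein that exports urate, porphyrins and many drugs, had the largest change of any ABC gene tested at either time. The gene spans chr6:58584491-58692451 (GRCm38.p6). In NC 24 h it ranged from 5.55 to 12.2 scaled RPKM (median 7.34), and in KD 24 h from 22.1 to 34.0 (median 26.6). The 5 NC 72 h samples had 6.52, 5.52, 8.23, 12.1 and 7.35, and KD 72 h ranged from 46.2 to 61.7 (median 54.7). Every KD sample was above every NC sample at both times, and every KD 72 h sample was above every KD 24 h sample. The log2 fold change was 1.79 ± 0.18 at 24 h (adjusted p = 6.06e-05, 3.45-fold) and 2.82 ± 0.17 at 72 h (adjusted p = 5.7e-07, 7.07-fold). The difference between the 2 times was 1.05 ± 0.26, with an adjusted p of 0.0974 that did not pass, although it passed on the deposited scale (1.23), within the larger cluster (1.17) and without replicate 5 (1.17). Abcg2 in NC did not pass between 24 h and 72 h (-0.02 ± 0.22, adjusted p = 0.970). The rise was past the threshold within both clusters of libraries, at 1.98 and 1.36 for 24 h and at 3.16 and 2.28 for 72 h (larger cluster first).

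The entry measured was the RefSeq mRNA of 2491 bases. The Ensembl transcript of Abcg2 with the highest level, 600 bases long, gave 1.71 ± 0.17 at 24 h and 2.82 ± 0.18 at 72 h. It rose from 19.5 ± 5.6 scaled RPKM in NC 24 h to 62.8 ± 11.99 in KD 24 h, and from 18.8 ± 6.5 in NC 72 h to 128.2 ± 16.9 in KD 72 h. All 5 tested entries of the gene were called higher at both times. These entries overlap and share reads, so they are not separate measurements.

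RefSeq lists 3 transcription starts for Abcg2 on chromosome 6, and 3′ reads do not tell which of them was used. The stretches from 250 bases before to 50 bases after each start (GRCm38.p6, plus strand) are shown because they differ in composition. Of these, the most upstream, chr6:58584283-58584582, held 50.0% G or C and 3 CpG dinucleotides, the middle one, chr6:58596422-58596721, held 48.0% and 10, and the most downstream, chr6:58640296-58640595, held 67.0% and 28. None held the letters searched for (given further on), so no letter is in capitals.
Abcg2 upstream start: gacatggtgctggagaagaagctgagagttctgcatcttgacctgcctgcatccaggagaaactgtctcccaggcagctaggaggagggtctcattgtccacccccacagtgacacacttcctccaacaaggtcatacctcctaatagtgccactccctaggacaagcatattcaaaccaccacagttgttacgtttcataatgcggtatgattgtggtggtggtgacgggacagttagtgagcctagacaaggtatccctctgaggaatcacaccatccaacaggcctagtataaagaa
Abcg2 middle start: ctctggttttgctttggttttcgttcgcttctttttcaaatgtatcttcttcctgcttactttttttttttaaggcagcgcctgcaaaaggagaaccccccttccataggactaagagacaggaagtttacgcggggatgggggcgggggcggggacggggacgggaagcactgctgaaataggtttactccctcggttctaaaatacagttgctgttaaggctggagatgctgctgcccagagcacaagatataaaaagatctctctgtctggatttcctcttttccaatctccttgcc
Abcg2 downstream start: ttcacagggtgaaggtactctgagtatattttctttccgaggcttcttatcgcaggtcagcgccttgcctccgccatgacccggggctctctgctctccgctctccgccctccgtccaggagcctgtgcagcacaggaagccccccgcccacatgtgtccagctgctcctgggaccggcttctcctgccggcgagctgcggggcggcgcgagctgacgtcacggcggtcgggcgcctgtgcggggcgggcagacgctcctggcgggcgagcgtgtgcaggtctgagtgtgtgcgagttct

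Abcg1 (chr17:31057694-31117984) exports cholesterol and other sterols to lipoprotein particles. In NC 24 h it ranged from 31.8 to 48.0 scaled RPKM (median 44.8) and in KD 24 h from 21.0 to 68.9 (median 46.2), so the groups overlapped. The 5 NC 72 h samples had 36.6, 46.3, 20.7, 24.8 and 37.5. KD 72 h ranged from 47.1 to 222.8 (median 168.4), and every sample was above the highest NC 72 h sample, although the lowest KD sample was close to it. The log2 fold change was 0.09 ± 0.23 at 24 h (adjusted p = 0.811) and 1.91 ± 0.40 at 72 h (adjusted p = 0.00414, 3.75-fold). The difference between the times was 1.83 ± 0.49 and did not pass (adjusted p = 0.127), although it passed on the deposited scale (2.01) and within the larger cluster (2.24).

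The KD 72 h samples split with the clusters. Replicates 1 to 4 had 163.0, 191.8, 173.7 and 222.8 scaled RPKM of Abcg1, whereas replicates 5 and 6, of the smaller cluster, had 51.0 and 47.1. Within the larger cluster the change was 2.23 ± 0.12 and within the smaller cluster 1.11 ± 0.17, and both passed (adjusted p = 9.4e-07 and 0.00395). Macrophages also carry much Abcg1 mRNA. The sum of 8 macrophage markers was 7.40 to 14.1 scaled RPKM in KD 72 h and 10.01 to 42.8 in NC 72 h. Of its 3 members tested at 72 h, Csf1r was higher (1.23 ± 0.25) and Lyz2 lower (-3.68 ± 0.59). The part of these cells in the Abcg1 values was not tested.

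Abca1, which loads cholesterol onto apolipoprotein A-I and is often described together with Abcg1, had 3.87 ± 0.53 scaled RPKM in NC 24 h and 4.12 ± 2.10 in KD 24 h, and 4.98 ± 1.04 in NC 72 h and 4.11 ± 1.02 in KD 72 h (n = 6, 6, 5 and 6). The log2 fold changes were -0.02 (95% interval -0.61 to 0.56) and -0.29 (-0.75 to 0.18), and neither passed (adjusted p = 0.964 and 0.375). Over the 23 samples no tested member followed the log2 level of Abca1 closely. The highest correlations with it were those of Abca5 (r = 0.21), Abca2 (0.18), Abcf3 (0.03), Abcd4 (-0.01) and Abcf1 (-0.02), a description over samples that share groups and libraries. Of 12 genes of sterol export and of the sterol-sensing LXR receptors, 11 were tested at each time, and 0 were called higher and 2 lower at each, where 12.5% of all genes were called lower at either time. The lower genes were Scarb1, a receptor for high density lipoprotein (-0.40 ± 0.13 and -0.74 ± 0.16), and Rxra, the partner of the LXR receptors (-1.08 ± 0.24 and -1.35 ± 0.27). The list's median log2 fold change was 0.01 at 24 h and -0.10 at 72 h. The other gene, Scd1, a fatty acid desaturase, was too abundant for its read numbers to be recovered, and in a fit that let such entries in it gave -0.06 ± 0.19 and -1.01 ± 0.17 (adjusted p = 0.845 and 9.89e-04).

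Of the peroxisomal transporters, Abcd3 was lower at both times and Abcd2 was higher at 72 h. Abcd3 (chr3:121758904-121815302), a major protein of the peroxisomal membrane, takes long and branched chain acyl-CoA into peroxisomes. It ranged from 27.8 to 33.5 scaled RPKM in NC 24 h (median 30.8) and from 13.0 to 28.8 in KD 24 h (median 17.2). The 5 NC 72 h samples had 33.9, 30.8, 39.8, 33.6 and 35.9, and KD 72 h ranged from 13.4 to 24.7 (median 18.5). At 72 h all KD samples were below all NC samples, and at 24 h only 1 KD sample (28.8) reached into the NC range. The log2 fold change was -0.68 ± 0.18 at 24 h (adjusted p = 0.0150) and -0.95 ± 0.15 at 72 h (adjusted p = 6.56e-04). At 24 h it was -0.99 ± 0.15 within the larger cluster and -0.10 ± 0.15 within the smaller, where it did not pass (adjusted p = 0.758), and it also did not pass without replicate 1 (adjusted p = 0.0605) or without replicate 2 (0.0595). At 72 h it passed in both clusters.

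Abcd2 (chr15:91145871-91192007), the peroxisomal transporter for very long chain and polyunsaturated acyl-CoA that is abundant in fat, ranged from 38.1 to 60.7 scaled RPKM in NC 24 h (median 38.6) and from 30.9 to 81.6 in KD 24 h (median 36.0), with no call (0.00 ± 0.25, adjusted p = 0.993). The 5 NC 72 h samples had 30.4, 33.1, 44.9, 39.2 and 32.4, and KD 72 h ranged from 41.9 to 61.9 (median 45.6), so a few samples overlapped. The change at 72 h was 0.43 ± 0.13 (adjusted p = 0.0318). Over the 8 tested entries of the gene, which share reads, it ran from 0.23 to 0.55, and 4 were called higher. In each of the 4 groups the libraries of the smaller cluster had the highest Abcd2 levels. The call at 72 h was lost without replicate 1, 5 or 6 (adjusted p = 0.0873, 0.0592 and 0.113), with the replicate number as a block (0.0568), with no filter (0.0596) and within the smaller cluster (0.116).

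Abcd4, which serves lysosomal cobalamin, did not pass at either time (-0.11 ± 0.21 and -0.15 ± 0.31). A list of 16 genes of fatty acid breakdown, activation and import was examined beside the peroxisomal transporters, and it also held genes that act outside peroxisomes. Of these, 0 were higher and 4 lower at 24 h, and 1 was higher and 5 lower at 72 h, where 11.6% and 11.0% of all genes were called higher and 12.5% lower at either time. The median log2 fold changes of this list were -0.23 and -0.28. Acaa2, which is the mitochondrial thiolase and not a peroxisomal enzyme, was among the lower genes at both times and had the lowest value of those called at 72 h (-0.51 ± 0.13 and -1.08 ± 0.17). Acsl1, a long chain acyl-CoA synthetase, was lower at both times (-0.51 ± 0.13 and -0.63 ± 0.12), and so was Hsd17b4, a multifunctional peroxisomal enzyme (-0.39 ± 0.12 and -0.37 ± 0.12). Pex16, needed to build the peroxisomal membrane, was lower at 24 h (-0.58 ± 0.12). The gene higher at 72 h was Slc27a4, a fatty acid transport protein (0.60 ± 0.18). Of the adipocyte markers, 2 of 4 tested were lower at 24 h and 1 of 4 at 72 h. Adipoq (adiponectin) gave -0.55 ± 0.15 and -0.96 ± 0.15 and was lower at both times, and Pparg, the master regulator of fat cells, gave -0.44 ± 0.15 and -0.18 ± 0.09 and was lower at 24 h. Neither Plin1 (-0.16 ± 0.14 and -0.45 ± 0.20) nor Cidec (-0.20 ± 0.19 and 0.10 ± 0.12) passed. In the fit that let the most abundant entries in, Fabp4 gave -0.18 ± 0.11 and -0.58 ± 0.13 and Lpl -0.30 ± 0.12 and -0.48 ± 0.13, and both were called lower at 72 h. The part of a lower adipocyte content was not tested.

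**Figure D3:**
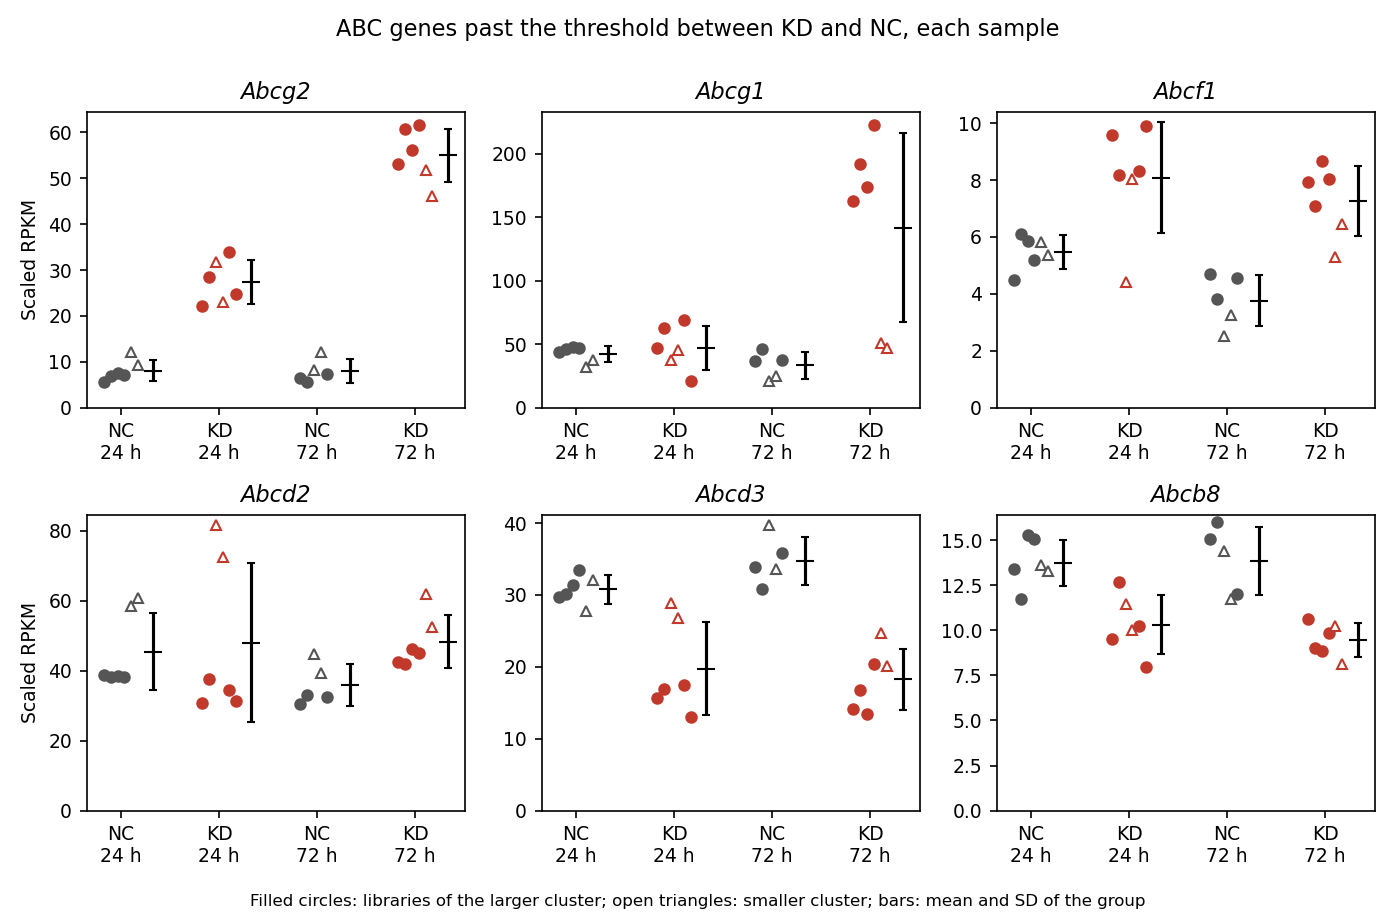
Scaled RPKM of the 6 ABC genes past the threshold in a KD comparison, each point 1 sample, with the group mean and SD beside it (n = 6, and 5 for NC 72 h). Open triangles mark the smaller cluster of libraries. They sit apart in Abcg1 at KD 72 h (51.0 and 47.1) and in Abcd2 at KD 24 h (81.6 and 72.4).

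The transporters of the mitochondrion belong to subfamily B. Abcb8 (chr5:24393681-24412759), part of a potassium channel complex and linked to iron export from mitochondria, ranged from 11.7 to 15.3 scaled RPKM in NC 24 h (median 13.5) and from 7.95 to 12.7 in KD 24 h (median 10.1). The 5 NC 72 h samples had 15.1, 16.0, 14.4, 11.7 and 12.03, and KD 72 h ranged from 8.15 to 10.6 (median 9.44). The groups overlapped at 24 h and did not overlap at 72 h. The log2 fold change was -0.40 ± 0.14 at 24 h (adjusted p = 0.0492) and -0.54 ± 0.13 at 72 h (adjusted p = 0.00963). The call at 24 h lay just under the threshold, and without any of replicates 1, 3, 4, 5 or 6 it was lost (adjusted p = 0.0871 to 0.127), and neither cluster alone gave a call (0.0924 in the larger, 0.379 in the smaller). On the deposited scale, with no scaling factors, the change at 72 h was -0.29 and did not pass (adjusted p = 0.123). The change at 72 h passed within the larger cluster (-0.57, adjusted p = 0.0262) and not within the smaller (-0.50, adjusted p = 0.213). Of 6 tested entries of the gene, which share reads, 4 were called lower at 24 h and 6 at 72 h.

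Abcb10, which supports haem synthesis in the inner membrane, had 69.0 ± 4.4 scaled RPKM in NC 24 h and 68.8 ± 9.9 in KD 24 h, with a log2 fold change of 0.00 (95% interval -0.23 to 0.23). In NC 72 h the 5 samples had 60.7, 53.7, 51.4, 67.6 and 57.2. In KD 72 h replicates 1 to 4 had 48.7, 50.3, 61.3 and 70.8, and replicates 5 and 6 had 14.3 and 15.6. Over all samples the change was -0.66 ± 0.38 and did not pass (adjusted p = 0.235). It was 0.01 ± 0.14 within the larger cluster and -1.98 ± 0.19 within the smaller (adjusted p = 3.6e-04), and each arm of the latter held 2 libraries. The same 2 KD libraries had the lowest Abca5 and Abcc5 levels of their group, and within the smaller cluster both genes were called lower at 72 h (-1.39 ± 0.35 and -1.49 ± 0.18).

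Abcb6, a porphyrin transporter, gave -0.08 ± 0.22 and 0.63 ± 0.23 (adjusted p = 0.826 and 0.0595). At 72 h Abcb6 passed on the deposited scale (0.88, adjusted p = 0.00792) and without replicate 5 or replicate 6 (adjusted p = 0.0386 and 0.0423). Of 18 tested genes of haem and iron-sulphur synthesis, 2 were higher and 2 lower at 24 h, which is close to the share of all genes (11.6% higher and 12.5% lower). At 72 h 0 were higher and 4 lower, against 11.0% and 12.5%. The higher genes at 24 h were Fdx1, a ferredoxin (0.51 ± 0.17), and Gfer, a sulphhydryl oxidase (0.37 ± 0.11). Alad, the second enzyme of haem synthesis, was lower at both times (-0.65 ± 0.13 and -0.81 ± 0.15). Uros, another enzyme of that pathway, was lower at 24 h (-0.69 ± 0.22). At 72 h the iron-sulphur assembly genes Iscu (-0.65 ± 0.19), Isca1 (-0.53 ± 0.16) and Isca2 (-0.53 ± 0.12) were lower.

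Subfamilies E and F act in translation. Abcf1 (chr17:35956819-35969750), which binds initiation factor eIF2 and the ribosome, ranged from 4.50 to 6.11 scaled RPKM in NC 24 h (median 5.59) and from 4.42 to 9.90 in KD 24 h (median 8.26). The lowest KD value was replicate 3, and the other 5 KD samples, from 8.05 upward, were above all NC samples. In NC 72 h the 5 samples had 4.68, 3.81, 2.54, 3.25 and 4.55, and KD 72 h ranged from 5.31 to 8.68 (median 7.52) with no overlap. The change at 24 h was 0.53 ± 0.20 and did not pass (adjusted p = 0.0630), and without replicate 3 of both groups it was 0.71 and passed (adjusted p = 0.0137). At 72 h it was 0.95 ± 0.20 (adjusted p = 0.00381, 1.93-fold), and the values were 0.86 and 1.00 within the larger and the smaller cluster, of which the latter did not pass (adjusted p = 0.0800).

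The RefSeq start of Abcf1 (GRCm38.p6, chr17:35969701-35970000, minus strand) is shown because, among the called members with a start in the RefSeq table, it alone held any of the letters searched for. The capitals mark CACGTG, which reads the same on both strands, the E-box that Myc and related factors can bind.
Abcf1 start: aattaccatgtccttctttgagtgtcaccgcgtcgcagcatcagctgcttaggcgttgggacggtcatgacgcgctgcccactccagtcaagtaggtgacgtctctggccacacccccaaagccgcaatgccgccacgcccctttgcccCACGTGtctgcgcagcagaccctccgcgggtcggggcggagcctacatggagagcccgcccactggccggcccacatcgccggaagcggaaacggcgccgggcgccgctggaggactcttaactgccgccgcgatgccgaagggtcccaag

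Abce1, which splits ribosomes after termination and is needed in every cell, gave 0.17 ± 0.17 and 0.25 ± 0.14 (adjusted p = 0.487 and 0.225). At 72 h it passed on the deposited scale (0.50, adjusted p = 0.0226) and within the larger cluster (0.46, adjusted p = 0.0271), but within the smaller cluster it was -0.05. Abcf2 gave 0.66 ± 0.23 and 0.36 ± 0.22 (adjusted p = 0.0560 and 0.263), and at 24 h it passed without KD 24 h replicate 6 (adjusted p = 0.0299) and on the deposited scale (0.0356). Of 9 tested translation partners, 5 were higher at 24 h and 2 at 72 h, and 0 were lower, where 11.6% and 11.0% of all genes were called higher. Nob1, which matures the small ribosomal subunit (0.73 ± 0.14 and 0.71 ± 0.16), and Etf1, the release factor (0.51 ± 0.15 and 0.42 ± 0.13), were higher at both times. Eif2s2 (0.55 ± 0.10) and Eif2s3x (0.86 ± 0.18), subunits of eIF2, were higher at 24 h, whereas the remaining subunit, Eif2s1, gave -0.35 ± 0.19 and did not pass (adjusted p = 0.187).

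In subfamily C, Abcc1, an exporter of glutathione conjugates, gave -0.18 (95% interval -0.56 to 0.19) and -0.02 (-0.47 to 0.42) and did not pass (adjusted p = 0.472 and 0.949). Abcc5 gave -0.38 ± 0.18 and -0.43 ± 0.24 in its short entry (adjusted p = 0.146 and 0.225), and 0.06 ± 0.17 and -0.05 ± 0.17 in its full-length entry. At 24 h the short entry was called lower within the larger cluster (-0.51 ± 0.14, adjusted p = 0.0209) and not within the smaller (-0.15 ± 0.10, adjusted p = 0.454). At 72 h the change was 0.18 ± 0.09 in the larger cluster, which did not pass (adjusted p = 0.169). In the smaller cluster, with 2 libraries in each arm, it was -1.49 ± 0.18. The value over all samples lay between them, and a difference between the clusters was not tested. Of the glutathione and conjugation genes, 5 of 13 were higher at 24 h and 3 of 12 at 72 h, and 0 were lower, where 11.6% and 11.0% of all genes were called higher. Their median log2 fold changes were 0.54 and 0.27. Nqo1, a quinone reductase (0.91 ± 0.21 and 1.49 ± 0.26), Gss, glutathione synthetase (0.67 ± 0.15 and 1.27 ± 0.22), and Txnrd1, thioredoxin reductase (1.94 ± 0.29 and 1.06 ± 0.17), were higher at both times. Gclm, a subunit of the first enzyme of glutathione synthesis (0.96 ± 0.24), and Gsta4, a glutathione transferase (0.68 ± 0.20), were higher at 24 h, and at 72 h they gave 0.15 ± 0.27 and -0.51 ± 0.22 and did not pass. Tap1 and Tap2, ABC genes with other symbols that load peptides for antigen presentation, did not pass at either time (Tap1 0.73 ± 0.28 at 24 h, adjusted p = 0.0687).

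Members below the filter went into exact permutation tests (two-sided) on mean scaled RPKM, 18 tests on 10 genes with at least 24 reads in all. The p-values are not adjusted for this number. Abcc4, an exporter of cyclic nucleotides and prostaglandins, had 0.112 ± 0.167 in KD 24 h against 0.374 ± 0.168 in NC 24 h (exact p = 0.0195), and 0.0748 ± 0.0813 in KD 72 h against 0.303 ± 0.169 in NC 72 h (exact p = 0.0216). Abcc9, a sulphonylurea receptor, had 0.138 ± 0.075 in KD 72 h against 0.664 ± 0.374 in NC 72 h (exact p = 0.00433, the smallest that 6 against 5 samples can give), and every KD sample was below every NC sample. At 24 h Abcc9 passed the filter and gave -0.60 ± 0.41 (adjusted p = 0.304), with opposite signs in the larger and the smaller cluster (-1.26 ± 0.49 and 0.67 ± 0.49, adjusted p = 0.0823 and 0.478). Kcnj8 and Kcnj11, the channel subunits that pair with these receptors, were not measurable, with sums of at most 0.812 scaled RPKM.

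Abcb1a, a multidrug efflux pump, had 0.335 ± 0.173 in KD 72 h against 0.0640 ± 0.0480 in NC 72 h (exact p = 0.00866), and 0.0795 ± 0.0966 in KD 24 h against 0.124 ± 0.077 in NC 24 h (exact p = 0.405). Its close copy Abcb1b gave -0.76 ± 0.39 at 72 h in the fit across all entries (adjusted p = 0.180), and without replicate 6 it was -1.20 and passed (adjusted p = 0.0326). These 2 genes are near-identical in parts, so reads could be split between them and both values are uncertain. Abca8a had 0.0869 ± 0.0587 in KD 24 h against 0.417 ± 0.346 in NC 24 h (exact p = 0.00649), and its exact p at 72 h was 0.195. Abcb9, a lysosomal peptide transporter, had 0.176 ± 0.120 in KD 72 h against 0.398 ± 0.129 in NC 72 h (exact p = 0.0303). Of the other tests of this kind, 8 had exact p of 0.216 to 0.90.

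Between the NC groups, 3 of 22 tested members passed, against 9.54% of 9485 genes and 9.09% of all entries (5.14% of genes higher and 4.4% lower at 72 h). Abca5, a lysosomal lipid transporter, rose from 2.45 ± 0.56 to 5.13 ± 1.06 scaled RPKM (1.05 ± 0.21, adjusted p = 0.00550), a call lost with the replicate number as a block (adjusted p = 0.0604) and within the smaller cluster (0.135). Abcb6 fell from 5.69 ± 0.97 to 3.04 ± 0.85 (-0.90 ± 0.21, adjusted p = 0.0131), a call lost without replicate 4 (adjusted p = 0.0587), with the block (0.0671) and within either cluster (0.0601 and 0.177). The short entry of Abcc5 fell from 165.8 ± 28.6 to 105.7 ± 34.0 (-0.67 ± 0.17, adjusted p = 0.0232), a call lost without replicate 1 or 6 (adjusted p = 0.0892 and 0.0968) and within the smaller cluster (0.119), and its full-length entry gave -0.40 ± 0.17 and did not pass (adjusted p = 0.183). No member passed for the difference of the KD effect between the times, where 0.195% of all entries did. With limma, 3 of the 23 members had an unadjusted p under 0.05 for that difference, and voom on recovered reads called 0. The NC samples are shared between this comparison and those of KD against NC, so their values are not independent.

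**Figure D4:**
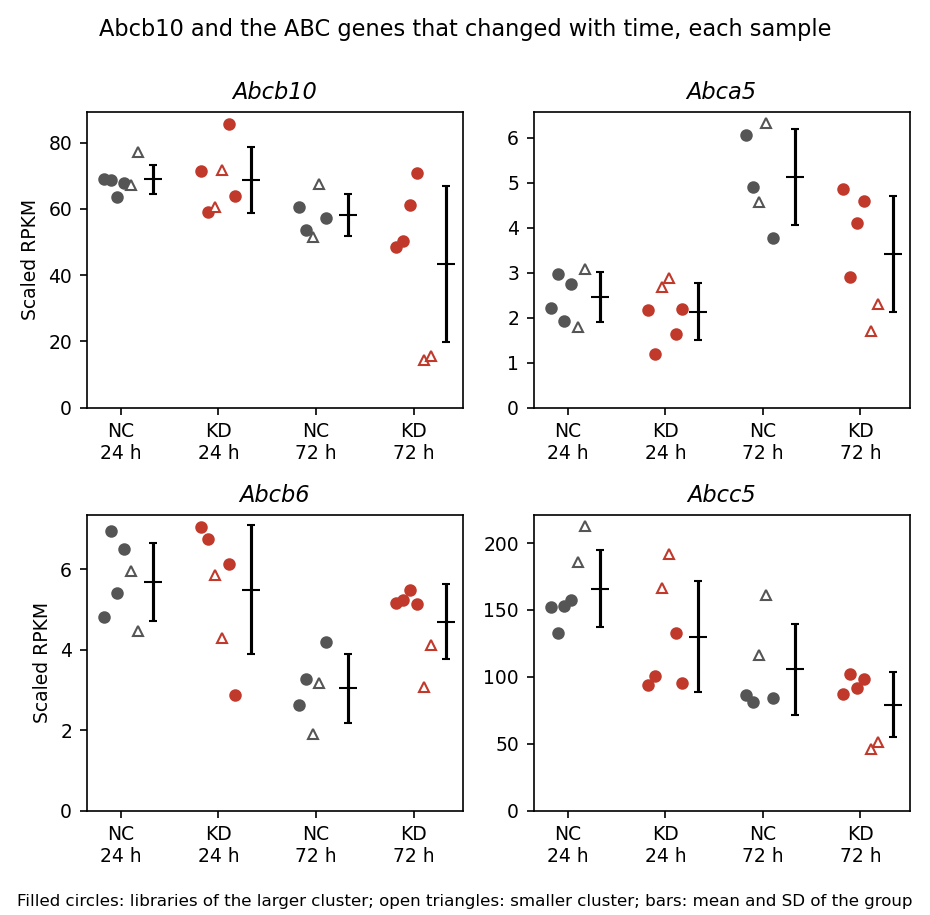
Scaled RPKM of Abcb10, Abca5, Abcb6 and Abcc5 in each sample, with group mean and SD (n = 6, and 5 for NC 72 h). Open triangles mark the smaller cluster of libraries. Abca5 lies higher and Abcb6 lower in NC 72 h than in NC 24 h, and 2 KD 72 h libraries of the smaller cluster have 14.3 and 15.6 of Abcb10.

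Starts of 37 of the 49 members were in the RefSeq table, 44 stretches of 300 bases, and 3 of the 6 members called in a KD comparison were among them (Abcg2, Abcd3 and Abcf1). These stretches were searched on both strands for 4 motifs. TGACNNNGC, the core of the antioxidant response element, was in 7 of 44 (15.9%), at Abca8b, Abcb1a, Abcc10, Abcc2 and Abcc4, against 12.4% of all 32851 starts. CACGTG was in 6 of 44 (13.6%), at Abca1, Abca15, Abca8a, Abca8b, Abcc4 and Abcf1, against 7.15%. For the direct repeats DR4, a form that LXR can bind, and DR1, a form that PPAR can bind, only exact copies were counted. These were in 0 of 44, against 5 (0.0152%) and 13 (0.0396%) of all 32851 starts. Exact copies are so rare that 0 of 44 was likely in any case. The search therefore cannot tell whether ABC starts hold LXR or PPAR sites that differ from the exact repeats. Over the 21 members tested at each time the correlation of log2 fold change with the log of gene span was -0.13 at 24 h and -0.02 at 72 h, against -0.29 and -0.20 over other genes. This is a description across genes, which are not independent replicates.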

How the data were processed

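RNA from 24 libraries of brite adipocytes was profiled by BRB-seq, a bulk method that marks each sample with a barcoded oligo-dT primer and reads the 3′ ends. The authors assigned tags to transcripts with the Genomatix suite and tested each time point with DESeq2, and the version and the build for these libraries are not given in the sources used here. The deposited table holds RPKM, other than counts, for 168326 entries (26277 RefSeq mRNA, 48232 Ensembl and the remainder other records), with decimal commas. Entries of 1 gene overlap and share reads, and whether strand was used was not stated. Of the columns, 0 belonged to no sample. The planned limma test was used.

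Reads per library and entry lengths were recovered from the RPKM steps, with 94.1% to 94.7% of low values per library within 0.05 reads of a whole number. Recovered lengths equalled those of GENCODE M21 for 91.2% of 26676 Ensembl entries. In NC 72 h replicate 6 few read numbers were odd, so its reads may be fewer by a factor of 2, which does not change RPKM. The table holds no molecular identifiers, so statements on depth concern counting error alone.

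An entry was tested if its RPKM was worth 10 or more reads at the median depth in n samples, n being the size of the smaller group, and if it had 15 reads overall. Of the entries, 61 (13 RefSeq mRNA, among them Fabp4, Lpl and Scd1) were too abundant in every library for a length to be recovered and were left out. None was an ABC gene. They were let in as an alternative chosen after seeing the data, if worth 10 reads even at 60 bases. RPKM were scaled by a trimmed mean of log ratios (30% and 5% trimmed) in each comparison, and over all 23 samples for the levels given. Models were fitted to log2(scaled RPKM + 0.1) by lmFit and eBayes with a trend in limma 3.58.1 (R 4.3.3), with two-sided p adjusted after Benjamini-Hochberg over all entries tested. Fold changes on this scale understate those of low genes. Members below the filter with 24 or more reads were compared by exact permutation tests (scipy 1.17.1). Scripts were tested on simulated data. Replicate numbers were not used to pair samples. Starts came from RefSeq (GRCm38.p6), matched by symbol.

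Alternatives were a pseudocount of 1, no filter, no scaling, the replicate block, leaving out each replicate number, 1 RefSeq entry per gene, voom on recovered reads, the near-identical libraries kept apart and each cluster alone. Leaving out KD 24 h replicate 6 was chosen after its depth was seen. Named genes were every member called in a KD comparison and a set of known members such as Abca1, Abcb10 and Abcc4, with the others given by counts. Abca5, Abcb6, Abcc5, Abcf2, Abcc9, Abca8a and Abcb9 were named after their values were seen. The members and lists were chosen with earlier results of these data known. Results for some genes are not reported here, although counts over members and lists include them.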

Additional observations from a re-analysis of the deposited data

Results flagged for a closer look

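Among 88 groups of 5 or 6 samples (22 members in 4 groups), 1 held a sample far from the others, where chance flags about 1 group in 20. Abcf1 in KD 24 h replicate 3 had 4.42 scaled RPKM, below the next lowest sample at 8.05, a gap of 0.661 of the group's range. This sample belongs to the smaller cluster of libraries, whose other KD 24 h library had 8.05.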

How the results depend on the processing

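Abcg2 was called higher at both times, and Abcg1 higher and Abcd3 lower at 72 h, under every alternative that was run. The number of members called at 24 h (3) became 5 with 1 RefSeq mRNA entry per gene, where Abcf1 and Abcf2 were added, and 1 in the smaller cluster, and ranged from 1 to 3 when a replicate number was left out. At 72 h (6) it ranged from 5 to 7 under the alternatives. Between the NC groups (3) it became 5 with the near-identical libraries kept apart, 1 with the replicate block and 0 in the smaller cluster, which tests 2 libraries against 2. For the difference between the times (0) it was 2 on the deposited scale, 3 in the larger cluster and 2 in the smaller cluster, and 0 to 1 when a replicate number was left out. The causes were not tested.

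The replicate numbers showed no sign of pairing. Libraries of the same number had mean correlations of -0.08 at 24 h and 0.05 at 72 h. Of the KD libraries, 1 of 6 and 2 of 6 correlated best with the NC library of their own number. The labels do not say whether equal numbers mark paired cultures, and these correlations cannot settle it. With the replicate block 2 members were called at 24 h and 5 at 72 h, and Abcb8 at 24 h and Abcd2 at 72 h (0.43, adjusted p = 0.0568) were lost, as were Abca5 and Abcb6 between the NC groups.

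Changes that were not called turned sign under some alternatives. At 24 h these were Abcb10 with 1 entry per gene (-0.003), with no filter (-0.017) and in the smaller cluster (-0.12), Abca1 on the deposited scale (0.034), with a pseudocount of 1 (0.001) and in the larger cluster (0.14), Abcd2 with no filter (-0.014) and in the larger cluster (-0.20), Abcg1 in the larger cluster (-0.017), Abcc1 (0.034) and Abca5 (0.24) in the smaller cluster, and Abcb6 without KD 24 h replicate 6 (0.083). At 72 h these were Abcc1 on the deposited scale (0.22), with the near-identical libraries kept apart (0.005) and in the larger cluster (0.14), Abcb10 (0.006) and Abcc5 (0.18) in the larger cluster (against -0.66 and -0.43 over all samples), and Abca1 (0.10) and Abce1 (-0.046) in the smaller. When a replicate number or KD 24 h replicate 6 was left out, the 24 h changes ran from -0.12 to 0.294 for Abcg1, -0.22 to 0.18 for Abcd2, -0.27 to 0.091 for Abca1, -0.07 to 0.042 for Abcb10 and -0.20 to 0.083 for Abcb6, and the 72 h change of Abcc1 from -0.16 to 0.10. Letting in 61 entries too abundant for a recovered length left the 4 counts of called members as they were. Of 578 comparisons of a named member under an alternative, 486 kept direction and side of the threshold, 33 fell short of it, 25 newly passed it and 34 turned sign. For the 18 members that were above 0 but below the filter, no test in the fit across all entries was made.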
